A study of Homo sapiens with 5 samples.

Results

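The genes described here are 32 genes of cholesterol and fatty acid synthesis and of their shared control, out of 26364 genes listed in each count file. They were taken by name: 19 genes of the sterol arm, 8 of the fatty acid arm and 5 regulators of the sterol regulatory element binding proteins (SREBPs). Their RNA was measured in subcutaneous tumours of HT-29, an established human colon cancer cell line, grown in female NOD SCID mice that were 5 weeks old and lack T and B cells. After implantation the mice were kept on their diets for 2 weeks. A pair of libraries came from food lacking methionine. Food lacking tryptophan and niacin, food lacking all 3 nutrients (here the combined omission) and normal food gave 1 library each. Every group carried the same cell line in the same host strain, so normal food is the only comparator and is a single library. The methionine-free libraries are not said to come from separate mice, so p-values here reflect just the scatter among the sequenced libraries, and that scatter may be technical. The labels write the titles of the normal and combined libraries in a shorter style than those of the other 3, and if that marks a difference in handling, it cannot be told apart from diet.

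Cells make cholesterol from acetyl-CoA through mevalonate, squalene and lanosterol, and make fatty acids from the same acetyl-CoA by carboxylation, chain building, elongation and desaturation. Both routes are controlled by SREBPs, transcription factors held in the endoplasmic reticulum that the escort protein SCAP carries to the Golgi, where they are cut and released to the nucleus. INSIG1 and INSIG2 retain SCAP when sterols are plentiful, SREBF2 encodes the form best known for sterol genes and SREBF1 the forms best known for fatty acid genes. Tumour cells, colon cancer cells among them, often make their own lipids.

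The libraries were shallow, with total counts of 553502, 678618, 613604 and 433930 on the restricted diets and 1088084 on normal food. A single count was worth 0.927 to 2.31 CPM, the depth-scaled count, and counting error alone was 13.6% to 21.5% at 50 CPM. Levels are given as CPM scaled by TMM, a method that sets the bulk of genes equal between libraries. All 12 colon epithelium markers were above 0 in every library. The adipocyte list summed to 15.5 to 22.0 CPM, with FABP4, LEP and CIDEA listed at 0 throughout, and 6 of 8 fibroblast markers were listed at 0 in every library. Skeletal muscle markers summed to 67.3 CPM in the tryptophan/niacin-free library and to 1.16 to 2.72 CPM in the other 4, and the part of that muscle RNA in the lipid gene values was not tested.

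A filter on low counts kept 30 of the 32 genes, all but the desaturases FADS1 and FADS2. FADS2 was listed at 0 in all 5 libraries, as was the widely expressed elongase ELOVL5. How reads of overlapping genes or with several positions were counted is unknown, so a listed 0 is not evidence that the gene was silent. FADS1 had 6, 5, 8 and 1 counts on the restricted diets and 6.12 on normal food, too few for a comparison. No member passed an adjusted p of 0.05 in any of 6 comparisons that could be tested with edgeR, DESeq2 or limma-voom, so the levels below are given as measurements.

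Promoter sequences of 4 regulators are shown because these genes differed in their order over the diets in the values that follow. They are the 250 bases before the gene start from RefSeq on GRCh38.p14, on the gene's strand: INSIG1 at chr7:155297628-155297877 (plus strand), INSIG2 at chr2:118088221-118088470 (plus), SREBF1 at chr17:17836987-17837236 (minus) and SREBF2 at chr22:41832855-41833104 (plus). Capitals mark matches, on either strand, to the sterol regulatory element TCACNCCAC, the CCAAT box CCAAT, the GC box GGGCGG and the E-box CACGTG.
INSIG1: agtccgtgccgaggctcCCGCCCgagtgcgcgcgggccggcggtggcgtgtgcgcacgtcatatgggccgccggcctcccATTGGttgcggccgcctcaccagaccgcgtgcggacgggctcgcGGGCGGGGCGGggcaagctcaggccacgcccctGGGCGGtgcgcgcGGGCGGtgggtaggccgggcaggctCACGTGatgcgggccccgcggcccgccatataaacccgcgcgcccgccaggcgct
INSIG2: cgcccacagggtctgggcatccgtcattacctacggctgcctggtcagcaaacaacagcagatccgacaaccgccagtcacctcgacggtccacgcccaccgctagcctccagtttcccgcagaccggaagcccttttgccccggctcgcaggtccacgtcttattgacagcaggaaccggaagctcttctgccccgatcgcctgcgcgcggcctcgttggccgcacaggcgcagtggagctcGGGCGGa
SREBF1: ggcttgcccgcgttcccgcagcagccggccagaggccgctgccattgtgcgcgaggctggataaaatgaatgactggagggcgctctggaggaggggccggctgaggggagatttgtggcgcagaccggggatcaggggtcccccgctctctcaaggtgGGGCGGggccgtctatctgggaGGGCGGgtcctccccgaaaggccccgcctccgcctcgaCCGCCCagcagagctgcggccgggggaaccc
SREBF2: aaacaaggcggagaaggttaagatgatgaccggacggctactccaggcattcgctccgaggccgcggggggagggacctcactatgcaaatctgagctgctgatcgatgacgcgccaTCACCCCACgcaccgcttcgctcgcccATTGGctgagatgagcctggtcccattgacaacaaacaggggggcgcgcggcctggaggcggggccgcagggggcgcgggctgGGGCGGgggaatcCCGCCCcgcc

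The SREBF2 window holds the sterol regulatory element 133 to 125 bases before the start and a CCAAT box 106 to 102 bases before it. INSIG1 holds 5 GC boxes, 2 of which share 1 base, a CCAAT box and an E-box 55 to 50 bases before the start, whereas INSIG2 holds 1 GC box. Of the 32 genes, 28 had such a window. The sterol regulatory element was found in 1 of the 28 windows (3.57%), against 0.882% of 7709 windows of genes tested and 0.875% of 27305 windows of all genes. A CCAAT box stood in 12 of 16 sterol windows (75%) and 3 of 7 fatty acid windows (42.9%), against 35.4% of genes tested and 33% of all genes. GC boxes stood in 25 of 28 member windows (89.3%), against 69% of genes tested and 42.3% of all genes. The E-box stood in 3 of 28 (10.7%), against 9.52% of genes tested and 6.49% of all genes. A match is a description of letters in this window and not a bound site.

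The regulators ran in different directions from each other across the diets. INSIG1 had 124 and 160.2 CPM in the methionine-free libraries, 91.0 CPM in the tryptophan/niacin-free library and 71.7 CPM in the combined omission, against 113 CPM on normal food. Both methionine-free libraries lay above normal food, and the other restricted diets below it. INSIG2 had 42.0, 43.7, 43.1 and 92.5 CPM in the same order, against 65.8 CPM on normal food. The 3 libraries lacking either methionine or tryptophan and niacin lay close together below normal food, and the combined omission alone lay above it.

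The ratio of INSIG1 to INSIG2 counts within a library does not depend on how libraries are scaled. It was 2.96 (95% exact interval 1.82 to 4.97) and 3.67 (2.38 to 5.84) in the methionine-free libraries and 2.11 (1.31 to 3.47) in the tryptophan/niacin-free library. It was 0.775 (0.469 to 1.27) in the combined omission and 1.72 (1.27 to 2.34) on normal food. The combined omission was the only library of the 5 in which INSIG2 had more counts than INSIG1. These intervals cover counting error only, not the spread between mice.

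In edgeR's quasi-likelihood test, 3 members passed an unadjusted p of 0.05 for the combined omission against methionine-free food, and 2 of them were the INSIG genes. INSIG2 was 1.11 higher on the log2 scale (SE 0.457, adjusted p = 0.577) and INSIG1 differed by −0.99 (SE 0.469, adjusted p = 0.643). The third was FASN, given below. No member was past the adjusted threshold in that comparison, where 0.03% of all genes were, and 7.57% of all genes passed unadjusted. The interaction asks whether omitting methionine has a different effect when tryptophan and niacin are also absent. It was 1.72 for INSIG2 (SE 0.685, unadjusted p = 0.0123, adjusted p = 0.533). This contrast sets the normal and combined libraries, which share a title style, against all the others. If that style marks a difference in handling, it cannot be told apart from the interaction. No member was past the adjusted threshold for the interaction, against 0.43% of all genes, and INSIG2 was the only member past an unadjusted p of 0.05, against 6.45% of all genes.

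**Figure D1:**
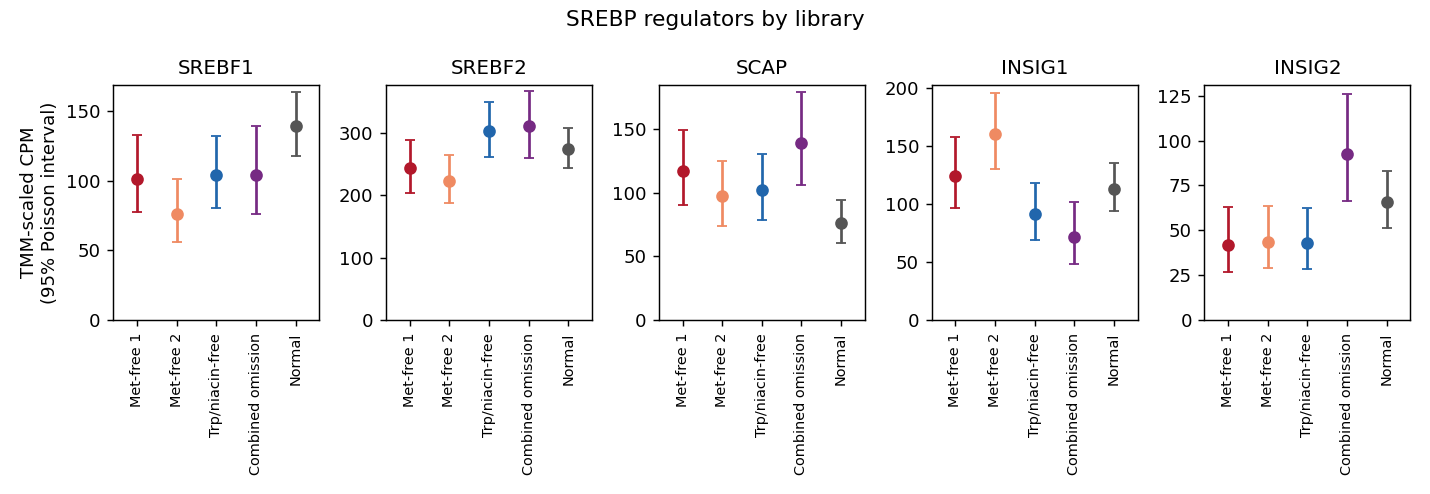
TMM-scaled CPM (vertical axes, each from 0) of the 5 SREBP regulators in each of the 5 libraries, with 95% Poisson intervals that cover counting error only. INSIG2 stands at 92.5 CPM in the combined omission and at 42.0 to 43.7 CPM in the 3 other restricted libraries, and SREBF1 is highest, at 139 CPM, on normal food.

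SREBF1 had 101, 76.0, 104 and 104 CPM in the methionine-free, tryptophan/niacin-free and combined libraries, against 139 CPM on normal food. All 4 restricted libraries lay below normal food, which held for 16.8% of all genes tested. The methionine-free difference was −0.64 on the log2 scale (SE 0.401, adjusted p = 0.762). SREBF2 showed no such order, with 243, 223, 303 and 310.0 CPM on the restricted diets and 274 CPM on normal food. The ratio of SREBF1 to SREBF2 counts was 0.421, 0.341, 0.342 and 0.336 on the restricted diets, against 0.507 on normal food. The interval of the normal library (0.414 to 0.619) overlapped that of each restricted library.

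SCAP, the SREBP escort, had 117, 97.1, 102 and 139 CPM on the restricted diets, against 76.0 CPM on normal food. It was the only regulator above normal food in 4 of 4 restricted libraries, which held for 15% of all genes tested. The combined omission had 60 SCAP counts against 82 on normal food, a depth-scaled ratio of 1.83 (95% exact interval 1.29 to 2.58, counting error only). For methionine-free food the difference was 0.49 on the log2 scale (SE 0.421, adjusted p = 0.844).

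The median of the sterol arm lay somewhat above normal food on each single omission, but for methionine-free food it was smaller after a correction for transcript length. In the methionine-free fit, 13 of 19 sterol genes were above 0 and their median was 0.33 on the log2 scale, against 50.3% of all genes and a median of 0.00. As a median of library differences from normal food it was 0.33 without a length correction and 0.13 with it. No member was past the adjusted threshold in that comparison, against 0.23% of all genes. At an unadjusted p of 0.05 there were 2 members, both sterol genes, against 7.68% of all genes. In bulk tumours, less RNA per cell and fewer cells of a kind cannot be told apart.

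IDI1, the isomerase that makes the reactive isoprene unit, had 143 and 179 CPM in the methionine-free libraries, 109 CPM in the tryptophan/niacin-free library and 97.2 CPM in the combined omission, against 81.6 CPM on normal food. All 4 restricted libraries lay above normal food. Its methionine-free difference was 0.97 on the log2 scale (SE 0.428, unadjusted p = 0.0228, adjusted p = 0.577). MSMO1, which oxidises methyl groups of lanosterol products, had 98.7 and 93.8 CPM in the methionine-free libraries, 60.6 and 55.5 CPM in the tryptophan/niacin-free and combined libraries and 53.8 CPM on normal food. The methionine-free pair stood clear of the 3 other libraries, with a difference from normal food of 0.84 (SE 0.423, unadjusted p = 0.048, adjusted p = 0.641).

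MVK, the mevalonate kinase, had 43.9 and 29.1 CPM in the methionine-free libraries, 23.9 and 32.4 CPM in the tryptophan/niacin-free and combined libraries and 21.8 CPM on normal food. The methionine-free pair differed from each other by more than replicate 2 differed from normal food. ACAT2, the thiolase that opens the pathway, had 68.5, 76.0, 54.3 and 74.0 CPM on the restricted diets, against 50.1 CPM on normal food. DHCR7, a reductase at its end, was the steadiest sterol gene, with 168, 194, 199.5 and 194 CPM on the restricted diets and 188 CPM on normal food. Its highest level was 1.19 times its lowest.

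Other late steps differed in order between diets. HSD17B7, a ketosteroid reductase, had 24.7 and 24.3 CPM in the methionine-free libraries, 14.4 and 11.6 CPM in the tryptophan/niacin-free and combined libraries and 17.6 CPM on normal food. It was the lowest sterol gene in the combined omission against methionine-free food (−1.09, SE 0.789, adjusted p = 0.778, and −0.69 with the length correction). Comparisons of HSD17B7 rest on few counts, with 5 in the combined omission and 9 in the tryptophan/niacin-free library. TM7SF2 and LBR both encode sterol reductases of the same step. TM7SF2 had 40.2, 42.1, 35.1 and 67.1 CPM on the restricted diets and 43.6 CPM on normal food, and LBR had 119, 131, 156 and 97.2 CPM and 139 CPM on normal food. In the combined omission TM7SF2 was at its highest and LBR at its lowest level of the 5 libraries. LSS, the lanosterol synthase, had 124, 89.0, 134 and 132 CPM on the restricted diets, against 117 CPM on normal food.

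Of the 19 sterol genes, 8 were above normal food in 4 of 4 restricted libraries and 0 were below it in all 4, against 15% and 16.8% of all genes tested. Both methionine-free libraries lay above normal food for 11 sterol genes and both below for 2, against 34.8% and 35.5% of all genes. With the length trend removed, both lay above for 9 sterol genes and both below for 5, against 35% and 34.5% of all genes, while the counts over 4 of 4 libraries stayed at 8 and 0. All of these counts share the single normal library, so an odd value there would enter each of them. Per kilobase of transcript, the most abundant sterol genes were SQLE, the squalene epoxidase, with a median of 163 CPM per kilobase over the 5 libraries, and FDPS, the farnesyl diphosphate synthase, with 133. HSD17B7 at 14.8 and MVK at 10.6 CPM per kilobase were the least abundant.

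**Figure D2:**
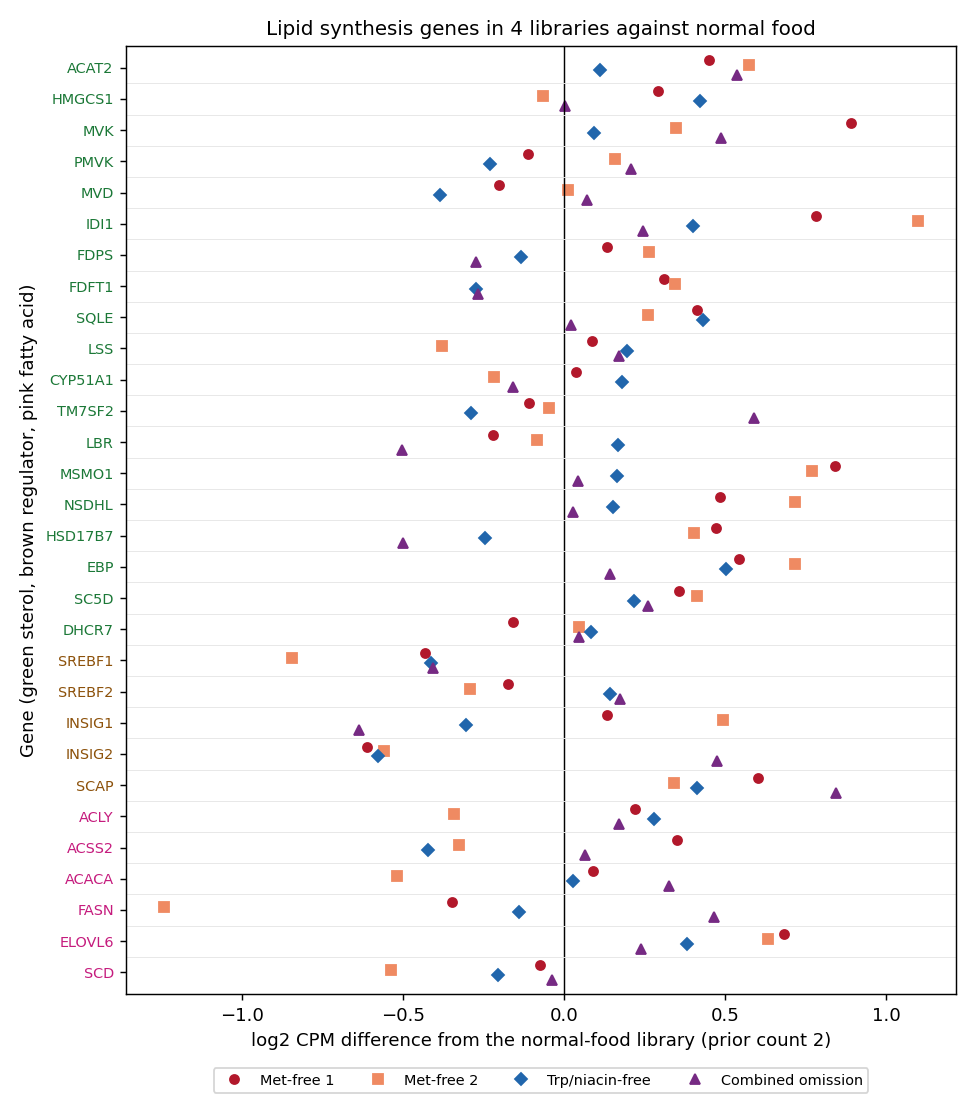
Difference in log2 CPM (horizontal axis, prior count 2) of each of 30 genes between a restricted library and the normal-food library, with 1 symbol per library. IDI1, MSMO1, NSDHL and EBP lie right of 0 for all 4 libraries, SREBF1 lies left of 0 for all 4, and FASN spreads from −1.24 in methionine-free replicate 2 to 0.46 in the combined omission.

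FASN, the fatty acid synthase, had the widest range of the fatty acid genes. It had 462 and 248 CPM in the methionine-free libraries, 535 CPM in the tryptophan/niacin-free library and 814 CPM in the combined omission, against 589.6 CPM on normal food. It was lowest in methionine-free replicate 2 and highest in the combined omission, a range of 3.29-fold, the widest of the 30 genes. The methionine-free pair averaged 355 ± 152 CPM (SD, n = 2), with replicate 1 at 1.87 times the level of replicate 2.

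For the combined omission against methionine-free food, FASN differed by 1.20 on the log2 scale (SE 0.469, unadjusted p = 0.0106, adjusted p = 0.532), the smallest adjusted p of any member there. The difference was 1.72 without methionine-free replicate 1, 0.82 without replicate 2 and 0.92 with the length correction. Against normal food FASN differed by −0.73 in the methionine-free fit (SE 0.469, adjusted p = 0.770). That value was −1.25 without replicate 1, −0.35 without replicate 2 and −0.44 with the length correction. In the combined omission against normal food the depth-scaled ratio was 1.38 (1.21 to 1.58). ACACA, the acetyl-CoA carboxylase that makes its substrate, kept a narrower range, with 319.7, 209, 306 and 377 CPM on the restricted diets and 300.3 CPM on normal food. The ratio of FASN to ACACA counts was 1.45 and 1.19 in the methionine-free libraries, 1.74 in the tryptophan/niacin-free library, 2.16 in the combined omission and 1.96 on normal food.

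ACLY, which makes cytosolic acetyl-CoA from citrate, had 386, 261, 402 and 372 CPM on the restricted diets, against 331 CPM on normal food. ACSS2, which makes it from acetate, had 45.7, 27.5, 25.5 and 37.0 CPM, against 35.2 CPM on normal food. Neither gene kept 1 side of normal food. SCD, the desaturase that makes monounsaturated fatty acids, had 512, 371, 468 and 525 CPM on the restricted diets. All were below the 539.5 CPM on normal food, which held for 16.8% of all genes tested. ELOVL6, an elongase, had 42.0, 40.5, 33.5 and 30.1 CPM, all above the 25.0 CPM on normal food. ELOVL6 was the only 1 of 6 fatty acid genes above normal food in 4 of 4 restricted libraries, against 15% of all genes. With the length correction 2 of 6 were, against 16.2% of all genes. The methionine-free difference of ELOVL6 was 0.72 (SE 0.497, adjusted p = 0.790).

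All 6 fatty acid genes tested were lower in methionine-free replicate 2 than in replicate 1. Their median difference was −0.58 on the log2 scale, while the sterol arm differed by 0.06. Over all genes tested, 50.4% were higher in replicate 2. Of the 6 fatty acid genes, 4 are in the longest of 4 equal length groups. The median of all genes in that group differed from normal food by −0.10 in replicate 1 and −0.45 in replicate 2. With the length trend removed, the medians against normal food in replicates 1 and 2 were 0.25 and −0.23 for the fatty acid arm. They were 0.30 and −0.003 for the sterol arm. ELOVL6 was then higher in replicate 2 (1.01 against 0.76). By the size rule used for lone libraries, at least a 2-fold difference with an interval that leaves out 1, 0 members differed between these replicates, against 6.6% of all genes. Replicate 2 alone set against normal food gave FASN as lower, with 8.75% of all genes, and IDI1 as higher, with 4.89%, 13.6% in either direction. With the length correction the FASN difference on the log2 scale was −0.70, under 2-fold, in place of −1.24. The IDI1 difference was 1.11 in place of 1.10. Replicate 1 alone gave 0 members, against 2.99% of all genes.

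**Figure D3:**
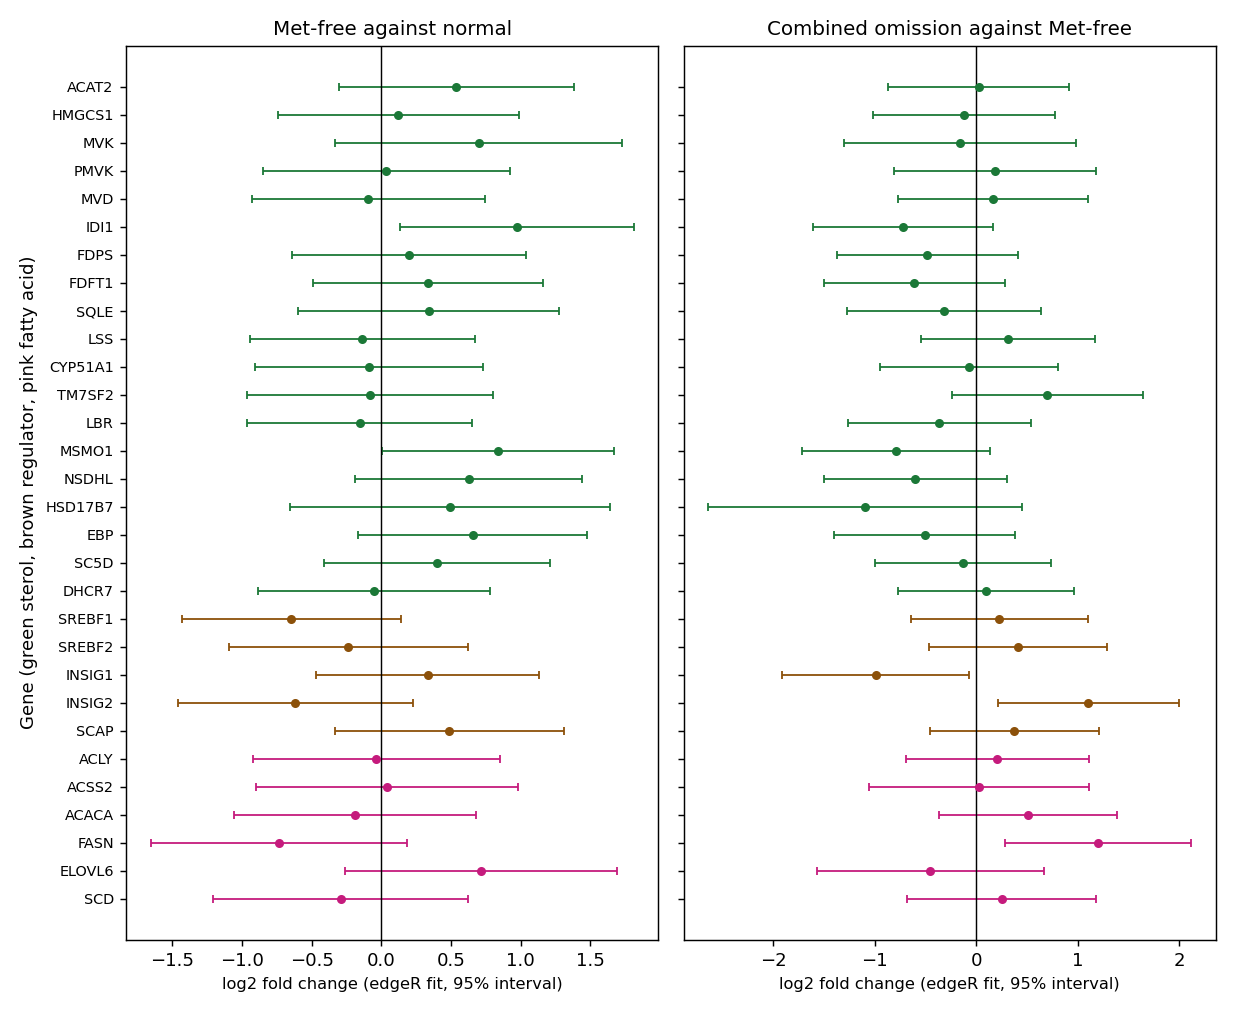
Fitted log2 fold change with its 95% interval (horizontal axis, edgeR) for 30 genes, methionine-free against normal food on the left and the combined omission against methionine-free food on the right. The intervals of IDI1 and MSMO1 on the left, and of FASN, INSIG1 and INSIG2 on the right, leave out 0 before adjustment and none passes after it.

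The arms were set against each other within each library. Sterol genes took 59.5% (95% exact interval 57.5 to 61.5) and 68.8% (66.9 to 70.7) of the counts of both arms in the methionine-free libraries. Their share was 58.1% (56.2 to 60.0) in the tryptophan/niacin-free library, 50.3% (48.0 to 52.6) in the combined omission and 54.3% (52.8 to 55.8) on normal food. The 3 libraries with a single omission lay above normal food and the combined omission below it, by more than counting error. FASN made up 26.0%, 21.3%, 30.0% and 37.7% of the fatty acid counts on the restricted diets, against 32.3% on normal food.

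As medians of log2 differences from normal food, the sterol arm stood at 0.31 and 0.26 in the methionine-free libraries, 0.15 in the tryptophan/niacin-free library and 0.05 in the combined omission. The fatty acid arm stood at 0.15, −0.43, −0.06 and 0.20 in the same libraries. With the length trend removed, the methionine-free values were 0.30 and 0.00 for the sterol arm and 0.25 and −0.23 for the fatty acid arm, so replicate 2 no longer showed a sterol difference. The sterol minus fatty acid difference was 0.16 and 0.69 in the methionine-free libraries, 0.21 in the tryptophan/niacin-free library and −0.16 in the combined omission. The SD between the methionine-free libraries was 0.378 (n = 2), so the differences of the lone libraries from 0 lay within the spread of that pair.

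**Figure D4:**
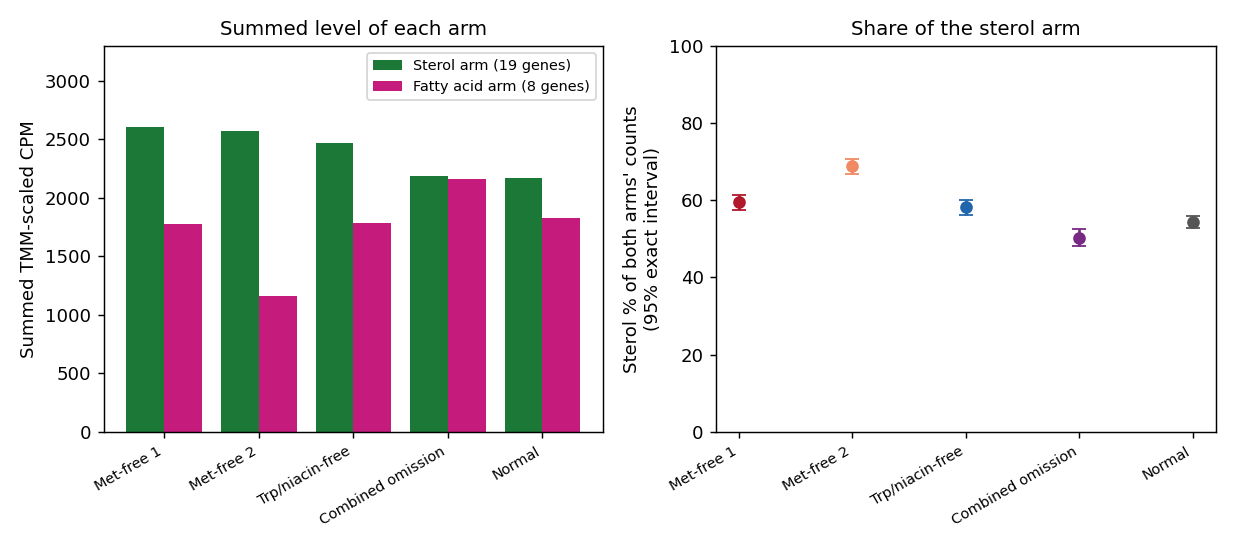
Left, summed TMM-scaled CPM of the 19 sterol genes and the 8 fatty acid genes in each library. Right, the sterol share of both arms' counts in percent with 95% exact intervals, highest at 68.8% in methionine-free replicate 2 and lowest at 50.3% in the combined omission.

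Transcript length moved with this difference. The fatty acid genes are long, with a median transcript of 5908 bases, against 2660 bases for sterol genes, 4253 for the regulators and 3461 for all genes tested. All genes were split by length into 4 equal groups. In methionine-free replicate 2 the shortest group had a median difference from normal food of 0.50 on the log2 scale and the longest group −0.45, against 0.14 and −0.10 in replicate 1. The tryptophan/niacin-free and combined libraries had no such slope, with group medians between −0.01 and 0.00. With the length trend removed in each library, the sterol minus fatty acid difference of the methionine-free pair was 0.12, against 0.47 without that correction. Corrected values for the lone libraries were 0.20 without tryptophan and niacin and −0.17 in the combined omission.

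**Figure D5:**
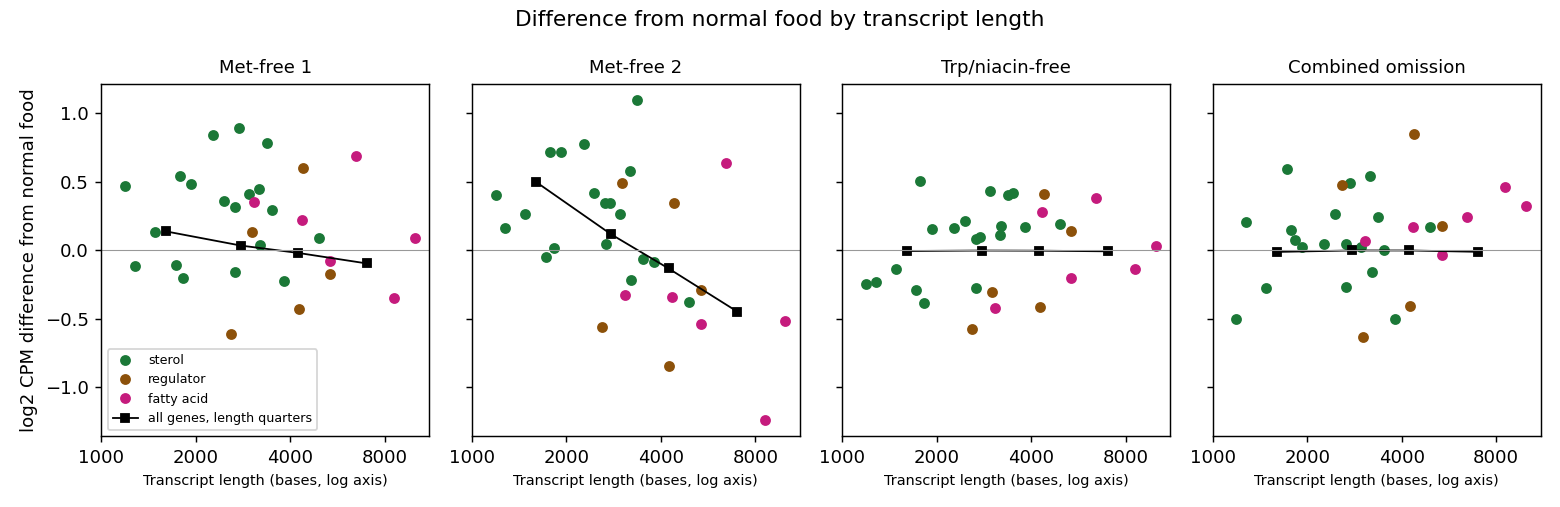
Difference in log2 CPM from normal food (vertical axis) by transcript length in bases (horizontal log axis), with 1 panel per restricted library. Dots are members coloured by arm and black squares are medians of all genes in 4 length groups, which run downwards from 0.50 to −0.45 in methionine-free replicate 2 and stay near 0 in the tryptophan/niacin-free and combined libraries.

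For the lone libraries the size rule was read against its background. In the tryptophan/niacin-free library 0 members differed from normal food by the rule, against 3.52% of all genes. In the combined omission 0 members did, against 2.02% of all genes. Between the combined omission and the tryptophan/niacin-free library 1 member did, against 4.04% of all genes in either direction and 2.31% higher. This was INSIG2, with 40 counts in the combined omission and 27 in the tryptophan/niacin-free library, a depth-scaled ratio of 2.15 (1.29 to 3.64). A prior count of 5 in place of 2 took it under 2-fold.

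Smaller differences with intervals that left out 1 were seen in each lone library. In the combined omission SCAP and FASN, given above, were among them. The share of all genes with such an interval was not counted, so these genes are not set apart from other genes. The tryptophan/niacin-free library had SQLE at 544 CPM against 403 CPM on normal food (ratio 1.35, 1.17 to 1.56), and HMGCS1, the synthase before mevalonate, at 316 CPM against 235 CPM (1.34, 1.11 to 1.62). In the combined omission both were near normal food, at 409 CPM for SQLE and 236 CPM for HMGCS1. In the methionine-free libraries SQLE was also above normal food, at 537 and 484 CPM, while HMGCS1 had 289 and 225 CPM, on either side of it. These intervals hold no spread between mice.

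The remaining tested comparisons gave no calls among the members with edgeR. For the tryptophan/niacin-free against the methionine-free libraries 0 members passed the adjusted threshold, against 0% of all genes, and 0 passed unadjusted, against 4.91%. Among sterol genes HSD17B7 was lowest there at −0.79, or −0.39 with the length correction. LSS was highest at 0.33, which was 0.59 without methionine-free replicate 1, 0.11 without replicate 2 and 0.20 with the length correction. A model with separate additive effects gave 0 members for methionine omission (0% of all genes) and 0 for tryptophan and niacin omission (0%), and 0 at an unadjusted p of 0.05 for both, against 1.73% and 1.63% of all genes. The largest additive effects of methionine omission were 0.60 for MVK among sterol genes and 0.39 for ELOVL6 among fatty acid genes. For tryptophan and niacin omission they were −0.68 for HSD17B7 and 0.64 for FASN, and INSIG1 had −0.67. The FASN effect was 0.33 without methionine-free replicate 2. DESeq2 called 0 members in all 6 comparisons, with FASN in the combined omission against methionine-free food as the only unadjusted one, and limma-voom also called 0.

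Related genes of sterol traffic, isoprenoid synthesis and SREBP processing gave no gene past the adjusted threshold in any of the 6 tested comparisons. The lists held 15 uptake, transport and esterification genes (11 past the filter), 11 isoprenoid genes (11 past it) and 10 SREBP processing genes (10 past it). At an unadjusted p of 0.05 in any comparison there were 2 uptake genes (NPC1L1 and NPC2), 1 isoprenoid gene (RABGGTA) and 0 processing genes with edgeR. Counted over genes and comparisons, these were 3 of 66, 3 of 66 and 0 of 60 values. In a single comparison 1.63% to 7.68% of all genes passed. The share of all genes passing in any comparison was not counted. By the size rule, RABGGTA, a subunit of the enzyme that attaches geranylgeranyl groups to Rab proteins, had 6 counts in the tryptophan/niacin-free library and 34 on normal food, a ratio of 0.304 (0.104 to 0.732). It was similarly low in the methionine-free libraries, with 5 and 8 counts, or 9.14 and 12.9 CPM against 31.5 CPM on normal food. It had 13 counts in the combined omission, 3.14 times the tryptophan/niacin-free level (1.11 to 10.1). UBXN8, of the endoplasmic reticulum, had 11 counts in the tryptophan/niacin-free library and 6 on normal food (3.16, 1.07 to 10.4). NPC1L1, a sterol uptake transporter, had 8 counts in the combined omission and 1 in the tryptophan/niacin-free library, or 11.6 times as much (1.55 to 515). All 3 rest on few counts.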

How the data were processed

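Per the labels' protocols, a stranded mRNA kit was used. The submitters' processing notes name featureCounts, Subread 2.0.0, TopHat2 2.1.1, SAMtools 0.1.18, Bowtie2 2.2.8 and hg19. Not given in the sources used here are the annotation, the strand setting and any separation of mouse reads, so overlapping genes and near-identical copies are uncertain. The authors deposited expected counts per gene symbol, and 15.2% to 17.6% of the values above 0 had decimals. They were rounded to whole numbers before testing.

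filterByExpr kept 10005 of 26364 genes. edgeR 4.0.16 (limma 3.58.1, R 4.3.3; TMM, quasi-likelihood F-test, Benjamini-Hochberg adjustment over all genes, threshold 0.05) fitted 1 mean per diet to all 5 libraries (1 residual degree of freedom) and an additive model (2). With 1 mean per diet the spread therefore comes from the methionine-free pair, pooled over genes. The prior degrees of freedom were infinite there, so an SE follows the trend over all genes and not that gene's own replicate scatter. In the additive model the spread also holds any departure of the diets from additivity. Every comparison with normal food shares 1 library. Lone libraries were compared by a size rule: a 2-fold difference in log2 CPM with a prior count of 2, and a 95% exact conditional binomial interval that leaves out 1. Intervals cover counting error only. The floor of 3 counts was 2.78 to 6.94 CPM. Alternatives were other scalings, no filter, DESeq2 1.42.0, limma-voom, other prior counts, each methionine-free library left out, and a length correction by lowess (span 0.4) on the longest GENCODE transcript, matched by symbol for 98.9% of genes tested. Lengths and promoters come from GRCh38 annotation and no hg19 coordinate was used. The steps were tested on simulated data. The members and lists were chosen with earlier results of these data known. Named in full were the regulators, the first and last genes of each arm and the extremes of each arm in each comparison.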

Additional observations from a re-analysis of the deposited data

How the results depend on the processing

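No member passed the adjusted threshold under any setting that gave a test. Under the alternatives 437 values of single named genes kept their direction and, where tested, their side of the threshold. With a methionine-free replicate left out, fits of 1 mean per diet gave no test, so only their direction was compared. LPIN3, no member, lost its call in 4 cases given with it. Counts over all genes moved more. For methionine-free against normal food edgeR called 23 genes, the length correction 3 and DESeq2 1. For the combined omission against methionine-free food it called 3, total-count scaling 6, limma-voom 9, the length correction 0 and DESeq2 0. For the interaction it called 43, the length correction 24 and DESeq2 2. A prior count of 5 gave 130 genes in place of 202 for the combined omission against normal food, and 0 members in place of 1 (INSIG2) against the tryptophan/niacin-free library. The cause of these moves was not tested.

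Signs turned for 7 uncalled member values. For the tryptophan/niacin-free against the methionine-free libraries, SCAP was 0.0386 with total-count scaling. With either methionine-free replicate left out, SCAP ranged from −0.1911 to 0.0752 and INSIG2 from −0.0177 to 0.0397. The SCAP interaction ranged from −0.1782 to 0.0881. For the additive effect of methionine omission FASN ranged from −0.3154 to 0.125 and INSIG1 from −0.0748 to 0.115, and with the length correction INSIG2 was −0.0099. The methionine-free sterol minus fatty acid difference of 0.47 was 0.69 without replicate 1, 0.16 without replicate 2 and 0.12 with the length correction, which put the sterol median at 0.13 in place of 0.33.

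No paired analysis was possible because only the methionine-free group has a second replicate. Depth limits genes under about 50 CPM most, where counting error alone exceeds 13.6%.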

Other observations

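Among 13 genes of glycerolipid synthesis and storage, LPIN3, a lipin that removes phosphate from phosphatidate, was the one gene past the threshold with edgeR. It had 43.9 and 17.8 CPM in the methionine-free libraries, 51.1 CPM in the tryptophan/niacin-free library and 98.3 CPM in the combined omission, against 121 CPM on normal food. It fell by 1.99 on the log2 scale in methionine-free against normal food (SE 0.424, adjusted p = 0.00425) and its interaction was 2.92 (SE 0.678, adjusted p = 0.00775). The adjusted p was 0.127 and 0.106 with the length correction and 1.00 for both with DESeq2, so these settings end the calls, while limma-voom gave 0.0155 and 0.00887. Without methionine-free replicate 1 the difference was −2.76 and without replicate 2 it was −1.47. Replicate 2 itself differed from replicate 1 by −1.17 for LPIN3. The SE above follows the trend over all genes and does not hold this scatter. The title styles limit the LPIN3 interaction in the same way as that of INSIG2. PLIN2, which coats lipid droplets, had 8 counts in the tryptophan/niacin-free library and 40 on normal food, a depth-scaled ratio of 0.344 (95% exact interval 0.139 to 0.746). The other restricted libraries were also below the 37.1 CPM of normal food. PLIN2 had 14.6 and 19.4 CPM in the methionine-free libraries (8 and 12 counts) and 27.8 CPM in the combined omission.

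Of 15 genes of fatty acid oxidation, 14 passed the filter and 0 passed the adjusted threshold in any of the 6 tested comparisons with edgeR, while 3 (ACAA2, ECI1 and HADH) passed unadjusted in at least 1. Their median for the combined omission against methionine-free food was −0.30, with 1 of 14 above 0. Over all genes tested that median was −0.02, with 48.8% above 0. The fatty acid supply and activation genes had a median of −0.25 there, with 1 of 15 above 0. Between the methionine-free libraries, 10 of 14 oxidation genes were higher in replicate 2 (median 0.22), against 50.4% of all genes. These list values are without the length correction, and the part of transcript length in them was not tested. Among all genes, the shortest length group had medians of 0.14 and 0.50 against normal food in the methionine-free libraries. Its median was −0.01 in the combined omission. Of 22 genes of fatty acid supply and activation 15 passed the filter, 0 passed the adjusted threshold and 2 (HACD2 and ME1) passed unadjusted. Another 4 (ELOVL2, ELOVL4, ELOVL5 and THRSP) were listed at 0 in all 5 libraries, with the same doubt over counting as for FADS2. Counted over genes and comparisons, 6 of 84 oxidation values and 2 of 90 supply values passed unadjusted. In a single comparison 1.63% to 7.68% of all genes did.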
